A study of Homo sapiens with 6 samples.

Results

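The BCL2 family decides at the outer mitochondrial membrane whether a cell starts the intrinsic death programme, and 10 of its genes are described here in a leukaemia line after knockdown of LAMP5. The genes were chosen by symbol, 1 row each, from a table of 39771 gene rows: the anti-apoptotic members BCL2, BCL2L1, MCL1 and BCL2A1, the effectors BAX and BAK1, and the BH3-only members BCL2L11, PMAIP1, BBC3 and BID. The cells were MOLM-13, an established human acute myeloid leukaemia line, and every library of both groups carries its MLL-AF9 translocation, which joins the KMT2A gene to MLLT3. The shLAMP5 group (4 libraries) had received a lentiviral hairpin against LAMP5 and the shNT group (2 libraries) a non-targeting hairpin, and both were selected with puromycin before harvest. The labels name neither the hairpin nor the harvest time of any single library, and their protocol speaks of several times, so a group mean may average over both. They also name no separate cultures, and the p-values below then measure only how far these 6 libraries spread, part of which may be technical.

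Anti-apoptotic members hold the effectors in check and bind BH3-only proteins, the effectors BAX and BAK1 form the pores that release cytochrome c, and the BH3-only proteins carry death signals by blocking the anti-apoptotic members or activating the effectors. Acute myeloid leukaemia cells rely on BCL2 and MCL1 to different degrees, and BCL2A1 is best known from monocytes and granulocytes and as a target of NF-kB. Much control of these proteins lies outside transcription: MCL1 is turned over rapidly, BID is cut by caspase-8, and MCL1, BCL2L1 and BCL2L11 are spliced into products of differing activity, which gene-level values do not separate.

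Levels are given in TPM, a level per transcript length scaled to a common total, so that genes can be compared within a library, and each column of the table sums to between 897026 and 912565. Read depth is unknown. A log2 fold change is the shLAMP5 mean minus the shNT mean of log2(TPM + 1), a scale that understates changes of low genes, and p-values come from limma fitted over 13072 genes with Benjamini-Hochberg adjustment at a threshold of 0.05. LAMP5, the targeted gene, measured 80.6, 65.6, 68.8 and 86.7 TPM in shLAMP5 libraries 1 to 4, against 170 and 282 TPM in shNT libraries 1 and 2, in the direction of the labels (log2 fold change -1.54, limma adjusted p 0.252). Within shLAMP5, library 2 stood furthest apart, with Spearman correlations across genes of 0.928 to 0.942 with the other shLAMP5 libraries, which among themselves had 0.956 to 0.986. Its median scaling factor was 0.871, against 0.996 to 1.05 in the other 5 libraries. With shNT libraries 1 and 2, shLAMP5 library 2 had correlations of 0.957 and 0.924, and shLAMP5 library 3 had 0.946 and 0.930. Of the markers of the labelled cell type, all 12 reached 1 TPM in at least 1 library, and their summed level was 1926 to 10390 TPM in shLAMP5 and 2561 to 6673 TPM in shNT libraries. Among markers of T and NK cells 3 of 7 reached 1 TPM, of B cells 1 of 6, of erythroid cells and megakaryocytes 0 of 8, with HBA2, PF4 and PPBP at 0, and of fibroblasts and packaging cells 3 of 8, with COL3A1 at 0. The T and NK sum was 105 to 195 TPM in shLAMP5 and 66.3 to 101.0 TPM in shNT libraries. Most of it was NKG7 (90.1 to 173 TPM in shLAMP5 and 57.0 to 88.3 TPM in shNT libraries), with GNLY at 10.1 to 15.99 TPM in shLAMP5 and 7.06 to 8.64 TPM in shNT and CD3D at 1.64 to 8.41 TPM in shLAMP5 and 2.22 to 3.75 TPM in shNT libraries, while CD3E and CD2 never exceeded 0.145 TPM. Its part in any result below was not tested.

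No BCL2 family gene passed the test. With limma, 0 of the 10 members and 0 of 13072 genes (0%) were called at an adjusted p of 0.05. At an unadjusted p under 0.05 there was 1 member, BCL2A1, where 8.97% of all genes stood past that mark. BCL2A1 and BBC3 lay above both shNT libraries in all 4 shLAMP5 libraries, as did 8.25% of genes, and BID lay below both, as did 13.5% of genes. These 3 of 10 members are not far from the 21.8% of all genes whose groups did not overlap. The members' log2 fold changes ran between -0.38 (BCL2) and 1.87 (BCL2A1), with a median of 0.097, beside a median of -0.0060 over all genes tested. With 1 library left out the members' median ran from 0.030 (without shLAMP5 library 3) to 0.20 (without shNT library 2). Without shLAMP5 library 2 the members above the shNT libraries were 5, BCL2L1, BAK1 and BCL2L11 joining the pair, against 22.5% of genes. Without shNT library 1, 3 members lay below shNT library 2 (BAX, PMAIP1 and BID), against 25.6% of genes, and MCL1 joined the pair above it, against 18.4% of genes. Without shLAMP5 library 4, BCL2 joined BID below the shNT libraries, against 16% of genes.

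**Figure D1:**
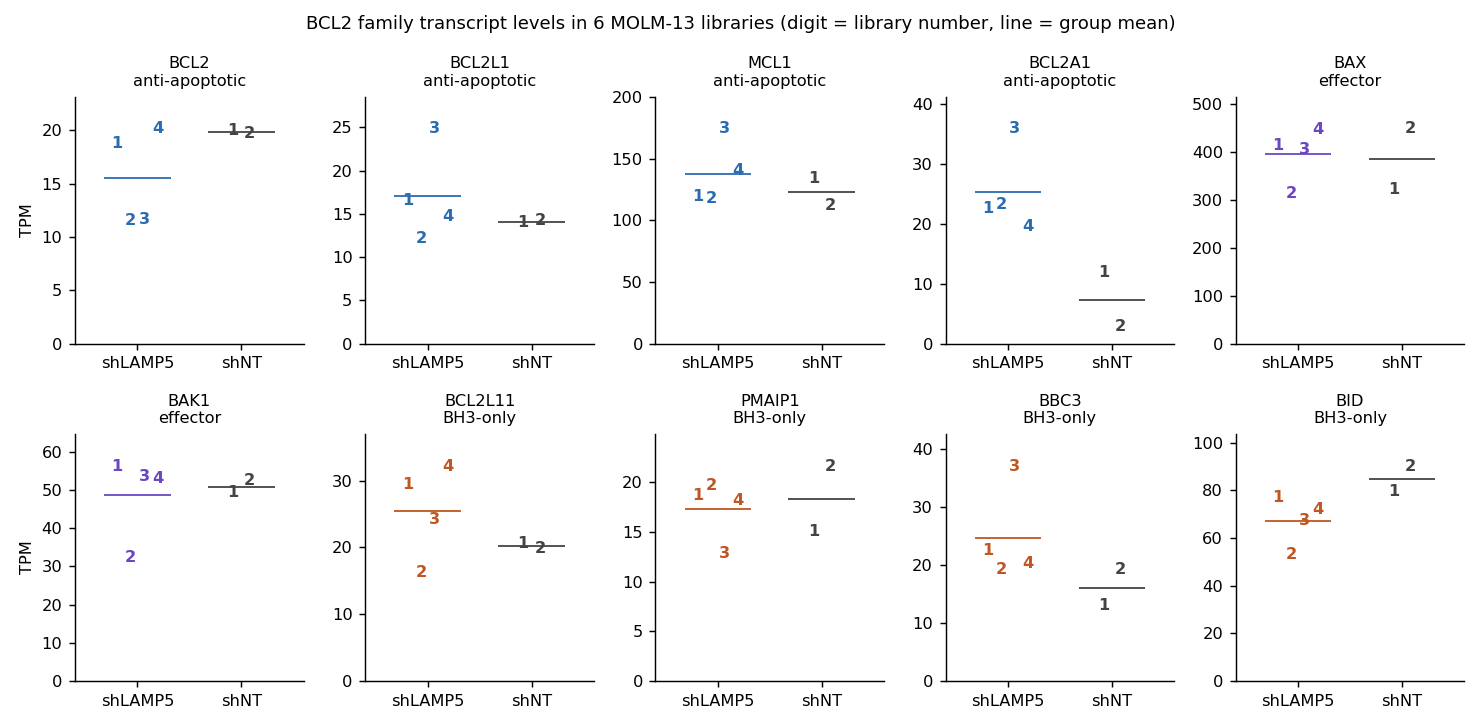
TPM of each member in each library, with 1 panel per gene, shLAMP5 libraries 1 to 4 left and shNT libraries 1 and 2 right (digits) and the group means as lines, on axes that start at 0. BCL2A1 lies between 19.6 and 35.9 TPM in shLAMP5 libraries, above both shNT values, while BAX, MCL1 and PMAIP1 overlap between the groups.

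BCL2A1 encodes the anti-apoptotic protein BFL-1 and showed the widest difference of the 10. It measured 22.6, 23.3, 35.9 and 19.6 TPM in shLAMP5 libraries 1 to 4, against 11.8 and 2.86 TPM in shNT libraries 1 and 2. The lowest shLAMP5 library exceeded the highest shNT library, and the shNT pair itself lay far apart. The means were 25.3 ± 7.21 TPM in shLAMP5 (SD, n = 4) and 7.34 ± 6.33 TPM in shNT (SD, n = 2). Its log2 fold change of 1.87 (SE 0.46, 95% interval 0.81 to 2.92) had a limma p of 0.00353 before adjustment and an adjusted p of 0.491. An exact permutation test (two-sided) gave a p of 0.0667, which with 4 against 2 libraries cannot be lower. The size depended on which shNT library was kept: the log2 fold change was 1.00 without shNT library 2 and 2.73 without shNT library 1. In bulk RNA, more cells that express BCL2A1 and more of its RNA per cell cannot be told apart.

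The promoter windows of BCL2A1 and BBC3 are shown because these were the members above both shNT libraries in every shLAMP5 library. They are RefSeq windows of 300 bases on GRCh38.p14, a later build than the hg19 named in the submitters' processing notes, from 250 bases before to 50 after the listed start. BCL2A1 is at chr15:79971147-79971446 and BBC3 at chr19:47232618-47232917, both on the minus strand and printed 5′ to 3′ along the gene, with matches to the motifs below in capitals.
BCL2A1: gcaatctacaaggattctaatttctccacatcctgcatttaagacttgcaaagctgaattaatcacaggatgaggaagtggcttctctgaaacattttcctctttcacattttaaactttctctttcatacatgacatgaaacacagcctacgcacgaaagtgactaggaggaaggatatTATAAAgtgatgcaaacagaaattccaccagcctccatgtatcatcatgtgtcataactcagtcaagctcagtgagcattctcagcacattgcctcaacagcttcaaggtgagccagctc
BBC3: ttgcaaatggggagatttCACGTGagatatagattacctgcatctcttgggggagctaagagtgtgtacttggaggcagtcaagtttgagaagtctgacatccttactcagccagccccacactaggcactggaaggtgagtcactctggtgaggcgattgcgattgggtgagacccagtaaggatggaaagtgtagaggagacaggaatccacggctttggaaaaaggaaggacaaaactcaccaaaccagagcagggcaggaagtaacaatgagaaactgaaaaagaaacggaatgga
The motifs, chosen after the values were seen, were the TATA box, written TATAAA, the E-box, written CACGTG, and the GC box, written GGGCGG, each read on both strands with overlapping matches counted. BCL2A1 had 1 TATA box, at base 181 of the window, and no match to the other motifs, and its window was 41% G or C. BBC3 had 1 E-box, at base 19, no match to the other motifs, and 48% G or C. Over all 35116 windows, 11.5% held the TATA box, 7.26% the E-box and 45.0% the GC box. Windows were found for 9 of the 10 members, 14 windows in all, and MCL1 had no entry. A TATA box occurred in windows of BCL2L1 and BCL2A1, a GC box in windows of BCL2L1, BAX, BAK1, BCL2L11, PMAIP1 and BID, and an E-box in windows of BAX, BBC3 and BID. BCL2L1 and BID had more than a single window each, so these genes cannot be set against the shares, which are per window.

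Among the other anti-apoptotic genes, BCL2, the founding member and the target of venetoclax, split the shLAMP5 libraries. It measured 18.7, 11.5, 11.6 and 20.1 TPM in shLAMP5 libraries 1 to 4, against 20.0 and 19.7 TPM in shNT libraries 1 and 2. Libraries 2 and 3 of shLAMP5 were low, and libraries 1 and 4 were close to shNT, so the groups overlapped. Its log2 fold change of -0.38 (SE 0.28, 95% interval -1.02 to 0.26, limma adjusted p 0.704) had an exact permutation p of 0.267. With estimated library weights, which gave shLAMP5 libraries 2 and 3 weights of 0.193 and 0.503 and shLAMP5 library 4 3.41, it was -0.10.

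MCL1, a short-lived guard that myeloid cells need, was the most abundant anti-apoptotic transcript in every library. Its levels were 120, 117, 174 and 141 TPM in shLAMP5 libraries 1 to 4, against 134 and 112 TPM in shNT libraries 1 and 2. Only shLAMP5 library 3 stood clear of the rest, and the log2 fold change of 0.15 (SE 0.22, 95% interval -0.36 to 0.66, limma adjusted p 0.875) became 0.031 without that library. BCL2L1, whose main product is BCL-XL, had 16.5, 12.1, 24.8 and 14.6 TPM in shLAMP5 and 14.0 and 14.2 TPM in shNT libraries. It was again highest in shLAMP5 library 3, and its log2 fold change of 0.21 (SE 0.28, 95% interval -0.43 to 0.85, limma adjusted p 0.855) was 0.021 without it.

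By shares, which have no test, the makeup of the anti-apoptotic pool differed between the groups for BCL2A1, BCL2 and MCL1, while its size overlapped. Summed over the 4 anti-apoptotic members, the level was 177, 164, 247 and 195 TPM in shLAMP5 libraries 1 to 4 and 180 and 149 TPM in shNT libraries 1 and 2. BCL2A1 made up 12.7%, 14.2%, 14.6% and 10.1% of that sum in the shLAMP5 libraries, against 6.57% and 1.92% in the shNT libraries. The BCL2 share was 10.6%, 7.004%, 4.71% and 10.3% in shLAMP5, against 11.1% and 13.2% in shNT libraries. MCL1 held 67.4% to 72.1% of the pool in shLAMP5 and 74.5% to 75.4% in shNT libraries. For these 3 shares the groups did not overlap, and for BCL2L1, at 7.36% to 10.1% in shLAMP5 and 7.77% to 9.51% in shNT libraries, they did. Shares of one sum move against each other, so a larger BCL2A1 share lowers the rest by arithmetic. The BCL2 and MCL1 shares are therefore not separate results, and the levels of both genes overlapped between the groups.

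Per library, BCL2A1 exceeded BCL2 or came close to it in shLAMP5 and not in shNT. The ratio of BCL2A1 to BCL2 was 1.20, 2.02, 3.09 and 0.975 in shLAMP5 libraries 1 to 4, against 0.591 and 0.145 in shNT libraries. That of MCL1 to BCL2 was 6.39, 10.2, 15.02 and 6.99 in shLAMP5, against 6.71 and 5.70 in shNT libraries, and the groups overlapped. These shares and ratios have no test, since the members were chosen with earlier results of these data known.

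**Figure D2:**
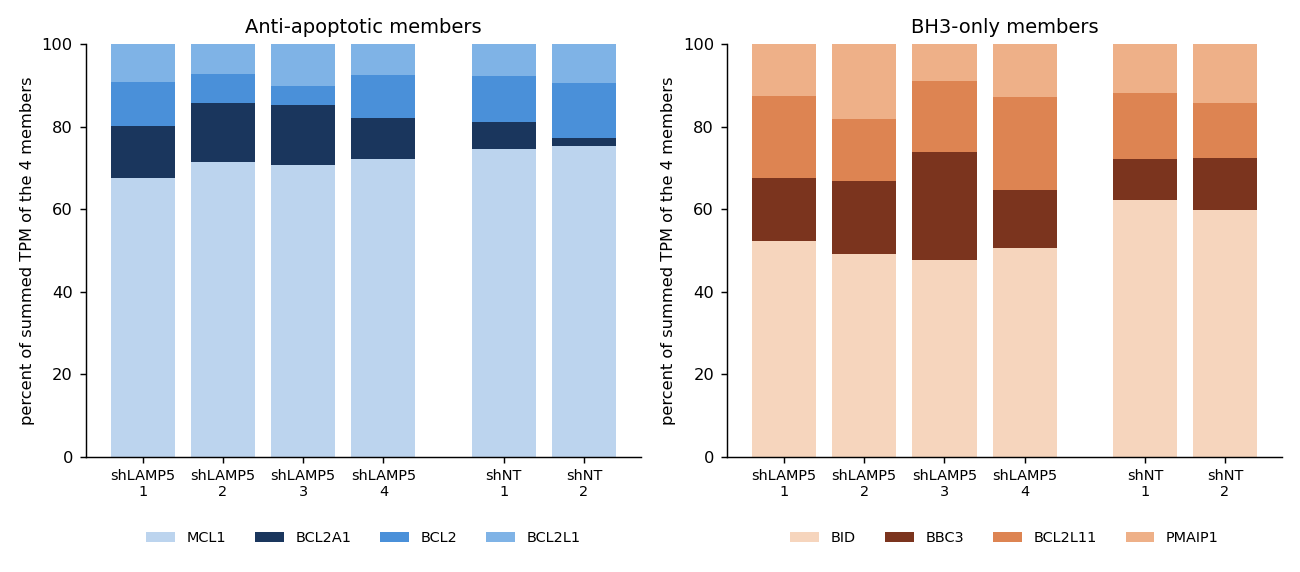
Percent of the summed TPM of the 4 anti-apoptotic members (left) and of the 4 BH3-only members (right) held by each gene, as stacked bars, 1 per library, shLAMP5 libraries left of shNT libraries. BCL2A1 takes 10.1% to 14.6% of the anti-apoptotic sum in shLAMP5 libraries and 1.92% to 6.57% in shNT libraries, and BID 47.6% to 52.2% of the BH3-only sum in shLAMP5 and 59.8% to 62.1% in shNT libraries.

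Effector transcripts were abundant and close between the groups. BAX, a cytosolic effector that moves to mitochondria when activated, was the highest of the 10 members in all 6 libraries, with 414, 314, 405 and 447 TPM in shLAMP5 libraries 1 to 4 and 321 and 448 TPM in shNT libraries 1 and 2. The shNT values lay nearly as far apart as the shLAMP5 values, and the limma fit gave a log2 fold change of 0.044 (SE 0.22, 95% interval -0.46 to 0.55, adjusted p 0.970). BAK1, the effector that resides on mitochondria and whose pseudogenes could share its reads, had 56.2, 32.4, 53.5 and 52.9 TPM in shLAMP5 and 49.3 and 52.4 TPM in shNT libraries. The low value was that of shLAMP5 library 2, and the log2 fold change of -0.092 (SE 0.26, 95% interval -0.69 to 0.50, limma adjusted p 0.943) was 0.089 without it. BAX exceeded BAK1 by 7.36 to 9.70 times in shLAMP5 and 6.52 to 8.55 times in shNT libraries.

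The BH3-only genes differed in opposite directions, and none passed. BBC3 encodes PUMA, a p53 target that binds all anti-apoptotic members. It measured 22.4, 19.2, 37.0 and 20.1 TPM in shLAMP5 libraries 1 to 4, against 13.0 and 19.1 TPM in shNT libraries 1 and 2. The groups did not overlap, but shLAMP5 library 2 stood above shNT library 2 by less than 0.1 TPM, and shLAMP5 library 3 was high. Its log2 fold change of 0.57 (SE 0.30, 95% interval -0.13 to 1.26, limma adjusted p 0.610) had an exact permutation p of 0.2, and was 0.36 without shLAMP5 library 3 and 0.30 without shNT library 1.

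BID, which links death receptors to mitochondria once caspase-8 has cut it, was the most abundant BH3-only transcript in every library. Its levels were 77.0, 53.1, 67.2 and 72.0 TPM in shLAMP5 libraries 1 to 4, against 79.7 and 90.2 TPM in shNT libraries 1 and 2. Every shLAMP5 library lay below both shNT libraries, the nearest pair being 77.0 and 79.7 TPM. The log2 fold change of -0.34 (SE 0.21, 95% interval -0.83 to 0.14, limma adjusted p 0.659) had an exact permutation p of 0.133. BID made up 52.2%, 49.1%, 47.6% and 50.5% of the summed BH3-only level in shLAMP5, against 62.1% and 59.8% in shNT libraries, and BBC3 15.2%, 17.8%, 26.2% and 14.1% in shLAMP5, against 10.1% and 12.7% in shNT libraries. A smaller BID share raises the BBC3 share by arithmetic, so these shares are not separate results. The BH3-only sum itself was 148, 108, 141 and 143 TPM in shLAMP5 and 128 and 151 TPM in shNT libraries, which overlap.

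BCL2L11 encodes BIM, an activator of the effectors that FOXO3 induces when growth factor signals fall. It had 29.4, 16.2, 24.2 and 32.2 TPM in shLAMP5 libraries 1 to 4 and 20.6 and 19.9 TPM in shNT libraries 1 and 2. Libraries 1, 3 and 4 of shLAMP5 lay above both shNT libraries and library 2 below both. Over all 6 libraries the log2 fold change of BCL2L11 was 0.28 (SE 0.28, 95% interval -0.37 to 0.93, limma adjusted p 0.803), and without shLAMP5 library 2 it was 0.47 (limma adjusted p 0.247). PMAIP1, whose product NOXA binds MCL1 and hastens its breakdown, had 18.6, 19.7, 12.8 and 18.2 TPM in shLAMP5 and 15.1 and 21.6 TPM in shNT libraries. All but shLAMP5 library 3 lay within the shNT range, and limma gave a log2 fold change of -0.075 (SE 0.25, 95% interval -0.64 to 0.49, adjusted p 0.952).

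**Figure D3:**
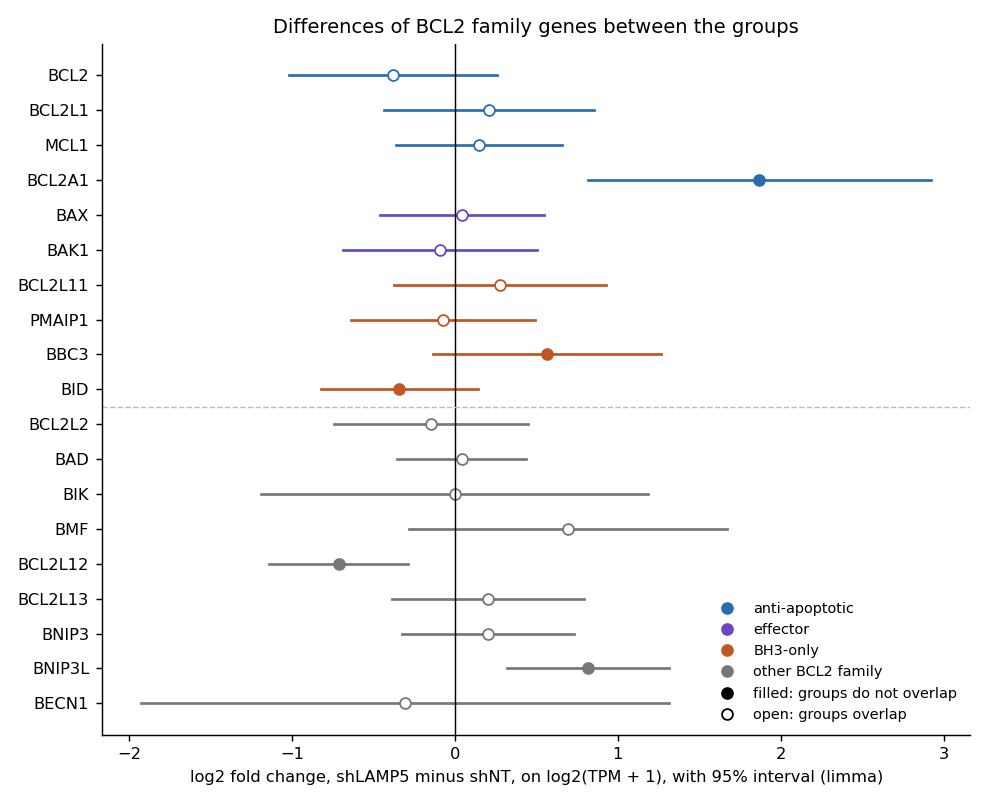
Log2 fold change, shLAMP5 minus shNT, on log2(TPM + 1) with its 95% limma interval (bars) for the 10 members, above the dashed line, and the other tested BCL2 family genes, below it, with filled points where the groups do not overlap. The interval of BCL2A1, 0.81 to 2.92, is the one among the 10 members that leaves out 0.

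Within every library the order of the 4 highest members was the same: BAX, MCL1, BID and BAK1. The other 6 members lay between 2.86 and 37.0 TPM and changed places from library to library, so their levels overlapped. BCL2A1 was the lowest of the 10 in both shNT libraries and between the fifth and the eighth in the shLAMP5 libraries, while BCL2 was the sixth and the seventh in the shNT libraries and the lowest in shLAMP5 libraries 2 and 3. Over the 6 libraries, all of 1 cell line, the widest opposed pair of members was MCL1 with PMAIP1 (Pearson r -0.909) and the closest pair BCL2L1 with BBC3 (Pearson r 0.845), and in each of these genes shLAMP5 library 3 held the highest or lowest value. These are the extremes of 45 pairs and are descriptions.

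Genes whose pattern over the 6 libraries was most like that of an anti-apoptotic member were sought among 6763 protein-coding genes with a mean of at least 10 TPM, by Pearson's r on log2(TPM + 1), as a description. For BCL2 they were TPD52 (r 0.998), ZBTB2 (0.988) and CRACR2A (0.986), and TPD52 had 249, 152, 159 and 260 TPM in shLAMP5 libraries 1 to 4 and 260 and 255 TPM in shNT libraries. For MCL1 they were ADORA2B (r 0.998), ADCY7 (0.995) and CBFA2T3 (0.992), all highest in shLAMP5 library 3. BCL2L1 was nearest to NFE2L1 (r 0.993), TIGAR (0.989) and HPD (0.986). BCL2A1 was nearest to ANKHD1 (r 0.986), SMPD1 (0.976) and SPAG7 (0.974). ANKHD1 had 38.1, 39.3, 40.5 and 38.5 TPM in shLAMP5 and 37.4 and 33.0 TPM in shNT libraries, a far narrower range than BCL2A1. SMPD1, the lysosomal acid sphingomyelinase, had 11.2, 10.3, 16.7 and 11.8 TPM in shLAMP5 and 7.99 and 4.33 TPM in shNT libraries. Pearson's r compares the shape of a pattern and not its size. Each r rests on 6 points and was picked as the highest of 6763.

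**Figure D4:**
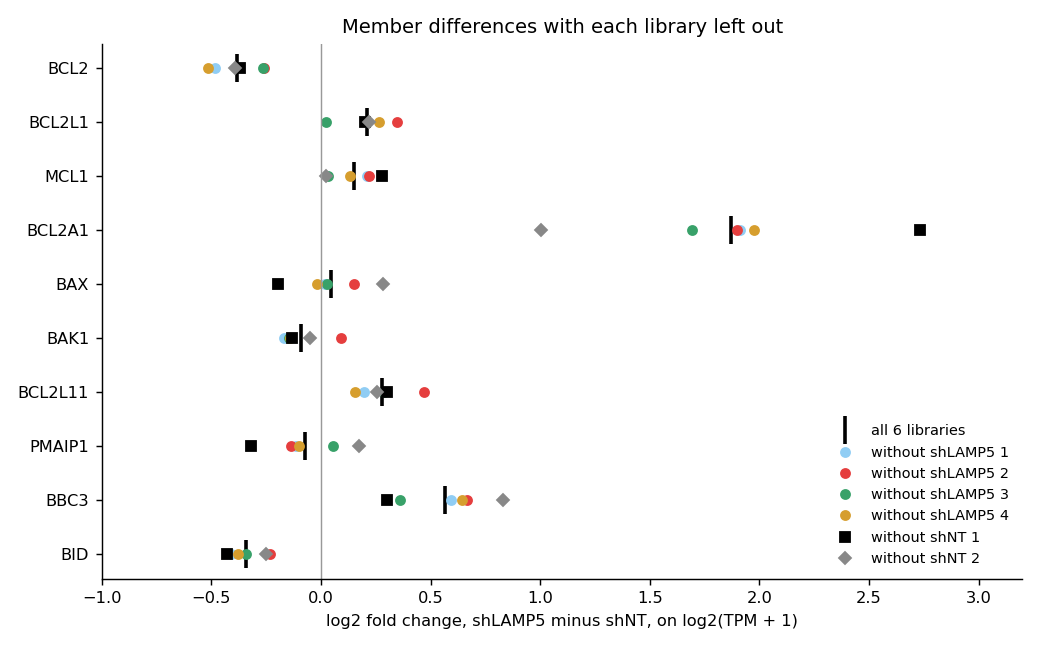
Log2 fold change of each member with all 6 libraries (black bars) and with each library left out in turn (points), shLAMP5 minus shNT, on log2(TPM + 1). BCL2A1 ranges from 1.00 without shNT library 2 to 2.73 without shNT library 1, while BAX, BAK1 and PMAIP1 lie on both sides of 0.

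Of 14 other BCL2 family genes, 9 were tested and 5 were not: BCL2L10, BOK, HRK, BCL2L14 and BCL2L15 never exceeded 0.707 TPM. None of the 9 passed (limma, 0 called), and 2 stood at an unadjusted p under 0.05, as did 8.97% of all genes. With library weights limma called BNIP3L (log2 fold change 0.84, adjusted p 0.0488), and 116 genes higher and 94 lower over all 13072. Of the 9, 5 had positive and 4 negative values, and the median log2 fold change was 0.041, or 0.33 without shLAMP5 library 2. BNIP3L, a receptor that marks mitochondria for autophagy, had 51.4, 51.9, 68.6 and 61.6 TPM in shLAMP5 libraries 1 to 4, against 37.2 and 28.2 TPM in shNT libraries 1 and 2, and its relative BNIP3 had 40.1, 40.7, 26.6 and 38.7 TPM in shLAMP5 and 33.0 and 29.4 TPM in shNT libraries. The groups did not overlap for BNIP3L (log2 fold change 0.82, SE 0.22, limma adjusted p 0.491) and overlapped for BNIP3 (0.20, SE 0.23, limma adjusted p 0.821). BCL2L12, a divergent member, had 10.8, 12.4, 12.6 and 13.8 TPM in shLAMP5, all below the 20.8 and 21.1 TPM of the shNT libraries (log2 fold change -0.71, SE 0.18, limma adjusted p 0.491).

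The BH3-only gene BMF, which senses loss of attachment and cytoskeletal stress, had 11.5, 23.1, 29.7 and 12.3 TPM in shLAMP5 and 14.5 and 7.67 TPM in shNT libraries (log2 fold change 0.69, SE 0.42, limma adjusted p 0.657). Its highest values were in shLAMP5 libraries 2 and 3, the libraries where BCL2 was lowest. BIK, a BH3-only protein of the endoplasmic reticulum, had 25.1, 8.10, 23.1 and 25.2 TPM in shLAMP5 and 11.6 and 29.8 TPM in shNT libraries, and its log2 fold change of -0.0025 was 0.016 under median scaling and 0.0073 under quantile normalization. BAD, a BH3-only protein that growth factor signals switch off by phosphorylation, was nearly level, at 13.8 to 14.8 TPM in shLAMP5 and 13.6 to 13.9 TPM in shNT libraries. The survival gene BCL2L2, whose reads may be shared with a BCL2L2-PABPN1 read-through (log2 fold change -0.15), BCL2L13 (0.20) and BECN1, an autophagy protein with a BH3 domain (-0.30), overlapped between the groups. BECN1 had 3.22 TPM in shLAMP5 library 2, against 19.5 to 27.1 TPM in the other shLAMP5 libraries and 17.8 to 19.0 TPM in shNT libraries.

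In the list of apoptosome, caspases and mitochondrial death factors, 14 of 17 tested genes were negative (median log2 fold change -0.19), where 6633 of all 13072 genes were negative. The list mixes roles, so its counts are not a direction of death-promoting genes. It also holds the membrane channels VDAC1 (-0.38), VDAC2 (-0.24) and VDAC3 (-0.19) and the inhibitors XIAP (0.32), BIRC2 (0.17) and DFFA (-0.38). In all 4 shLAMP5 libraries, 5 of the 17 lay below both shNT libraries, as did 13.5% of all genes, and 0 above both, as did 8.25%. Without shLAMP5 library 2 the median was -0.13, 11 of 17 were negative and 3 lay above (22.5% of all genes), and without shNT library 1 it was -0.33 with 10 below the remaining shNT library (25.6% of all genes). None was called by limma, and 2 stood at an unadjusted p under 0.05, as did 8.97% of all genes. CYCS, which encodes cytochrome c and has processed pseudogenes that could share its reads, had 250, 179.5, 159 and 240 TPM in shLAMP5, against 285 and 323 TPM in shNT libraries (log2 fold change -0.57, SE 0.23, limma adjusted p 0.541). On the other side were CASP9, the apoptosome's initiator caspase (log2 fold change 0.49), and XIAP, an inhibitor of caspases (0.32), with overlapping groups.

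Upstream of BID, 9 of 10 tested genes of the death receptor arm were positive (median log2 fold change 0.32), where 6439 of all 13072 genes were positive. The 9 include CFLAR (0.30), an inhibitor of caspase-8, so they are not all death-promoting. Of the 10, 3 lay above both shNT libraries in all 4 shLAMP5 libraries, as did 8.25% of all genes. Without shLAMP5 library 2 those above were 7, against 22.5% of all genes. Without shNT library 1 they were 5, against 18.4%, and without shLAMP5 library 3 the median was 0.20, with 7 positive and 3 negative. FAS, a death receptor and p53 target, had 23.4, 16.6, 26.8 and 24.9 TPM in shLAMP5, against 10.97 and 14.5 TPM in shNT libraries (log2 fold change 0.79, SE 0.24, limma adjusted p 0.505). CASP10, an initiator caspase, had 6.60 to 9.88 TPM in shLAMP5 and 5.69 to 5.73 TPM in shNT libraries (log2 fold change 0.35), and TNFRSF10A, a TRAIL receptor, was the 1 negative member (-0.14). None was called by limma, and 1 stood at an unadjusted p under 0.05, as did 8.97% of all genes. With library weights limma called FAS (log2 fold change 0.89, adjusted p 0.0464), and 116 genes higher and 94 lower over all 13072.

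Transcription factors that induce BH3-only genes had 5 positive and 5 negative values among 10 tested, with a median log2 fold change of 0.045 (-0.34 without shNT library 2). E2F1, which induces proliferation and BH3-only genes alike, had 9.56, 7.78, 3.44 and 7.24 TPM in shLAMP5, against 12.3 and 15.5 TPM in shNT libraries (log2 fold change -0.96, SE 0.34, limma adjusted p 0.524). FOXO4 had a log2 fold change of 0.41 and ATF4, of the integrated stress response, -0.21. DDIT3, the stress factor CHOP, differed more between libraries of a group than between the groups, at 42.8, 146, 62.9 and 15.9 TPM in shLAMP5 and 65.6 and 14.98 TPM in shNT libraries (log2 fold change 0.65, SE 0.84). None of the 10 was called by limma, and 1 stood at an unadjusted p under 0.05, as did 8.97% of all genes.

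Genes of MCL1 and BCL2 family protein turnover were near 0 as a list, with 5 positive and 5 negative values among 10 tested and a median log2 fold change of -0.018. USP9X, a deubiquitinase that stabilizes MCL1, had 9.99 to 15.4 TPM in shLAMP5 and 8.66 to 9.95 TPM in shNT libraries (log2 fold change 0.33, SE 0.22, limma adjusted p 0.678). CDC20, a mitotic activator of the anaphase-promoting complex that also targets MCL1, had 58.2, 65.5, 45.5 and 52.6 TPM in shLAMP5, against 130 and 101.3 TPM in shNT libraries (log2 fold change -1.05, SE 0.22, limma adjusted p 0.440). FBXW7, an MCL1 ubiquitin ligase subunit (0.097), and the kinase GSK3A (-0.27) overlapped between the groups. None was called by limma, and 1 stood at an unadjusted p under 0.05, as did 8.97% of all genes. With library weights limma called CDC20 (log2 fold change -1.08, adjusted p 0.0302), and 116 genes higher and 94 lower over all 13072.

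**Figure D5:**
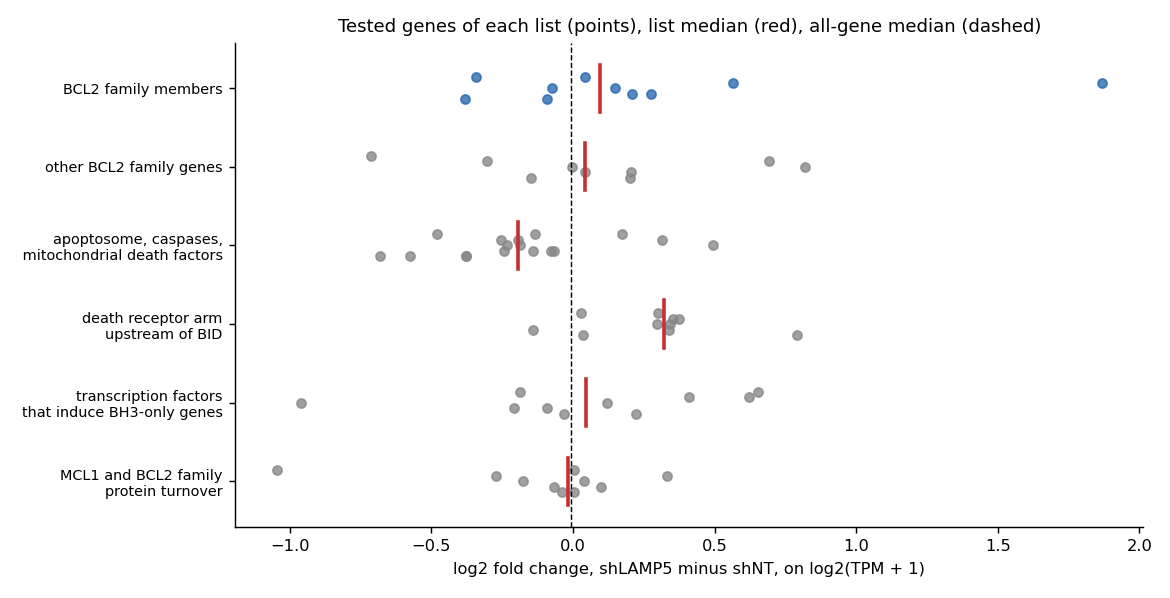
Log2 fold change, shLAMP5 minus shNT, on log2(TPM + 1), of every tested gene (points) of the 10 members and of 5 lists around them, with each list's median (red) and the median of all genes tested (dashed). List medians run from -0.19 for the apoptosome, caspases and mitochondrial death factors to 0.32 for the death receptor arm.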

How the data were processed

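RNA of 6 MOLM-13 libraries was sequenced from TruSeq libraries on a HiSeq instrument, per the labels' protocols. The authors deposited 1 table of 39771 Ensembl genes by 6 libraries, read here as TPM from its values, since its header names no unit. Kallisto and hg19 are named, per the submitters' processing notes. No source used here gives the transcript set or the step to genes. TPM holds no read counts, so count tests, depth and counting intervals were not available.

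Symbols came from a gene name table (29863 rows matched uniquely) and gene types from GENCODE 29. The groups were taken from the titles. Genes had to reach 1 TPM in 2 or more libraries, which left 13072 genes and all 10 members. Their log2(TPM + 1) values were tested with limma 3.58.1 (R 4.3.3, trended prior variance). It was tested on simulated data. Exact two-sided permutation tests ran over 15 splits. Python 3.11.15 with numpy 2.4.6, matplotlib 3.10.9 and pandas 2.3.3 made the tables and figures. The members and lists were chosen with earlier results of these data known. Beside the members, the rule named LAMP5, the tested BCL2 family genes, the 2 genes with the smallest p in each direction of each other list, and the 3 genes most like each anti-apoptotic member. Values of some genes are not reported here. Alternatives were other pseudocounts, filters and scalings, no trend, library weights, protein-coding rows only, libraries left out, and the replicate number as a block. The block fit compared only libraries 1 and 2 of each group, since the other numbers occur in shLAMP5 alone.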

Additional observations from a re-analysis of the deposited data

Results flagged for a closer look

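Of 35 genes chosen by the naming rule, 4 had 1 shLAMP5 library far from the other 3, by Dixon's gap ratio for groups of 4. Chance flags about 1 gene in 20, and the genes are not independent. The effector BAK1 had 32.4 TPM in shLAMP5 library 2 (ratio 0.861), against 52.9 to 56.2 TPM in the other 3. BIK had 8.10 TPM in the same library (0.877), against 23.1 to 25.2 TPM, and ATF4 had 404 TPM there (0.853), against 248 to 271 TPM. BNIP3 had 26.6 TPM in shLAMP5 library 3 (0.858), against 38.7 to 40.7 TPM.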

How the results depend on the processing

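Under the 17 alternatives, 0 members were called in every one, and the log2 fold changes of BCL2, BCL2L1, BCL2A1, BCL2L11, BBC3 and BID kept their sign in all of them. Part of this was fixed in advance. Other filters, no trend and protein-coding rows only leave a member's log2 fold change as it is. For BCL2A1, BBC3 and BID, whose groups did not overlap, leaving libraries out or changing the pseudocount cannot reverse the sign. BCL2A1 ranged from 1.00 (without shNT library 2) to 2.76 (without shNT 1 and shLAMP5 2 together), with adjusted p between 0.0797 and 1.00, and was 1.06 with a pseudocount of 10 TPM. Leaving out 1 library gave 2 to 5 members above the shNT libraries (9.01% to 22.5% of all genes) and 1 to 3 below (15.9% to 25.6%). Leaving out shNT 1 and shLAMP5 2 together gave 6 and 3 (33.6% and 29.9% of all genes), since 1 shNT library is then compared with 3. The members' median log2 fold change lay between -0.023 (replicate block) and 0.20. LAMP5 lay between -1.90 and -1.17 with 1 library left out and was called with library weights (-1.40, adjusted p 0.0302), as were BNIP3L (0.84, 0.0488), FAS (0.89, 0.0464) and CDC20 (-1.08, 0.0302). Over all genes, library weights called 116 higher and 94 lower, no filter on low genes called 14 lower, and the replicate block 7 higher and 9 lower; the cause was not tested. Numbers 1 and 2 are shared by the groups, but nothing states that they pair libraries. Deviations from the group means correlated at -0.52 for number 1 and -0.47 for number 2. The deviations of 2 shNT libraries mirror each other, so the cross pairs had 0.52 and 0.47 by arithmetic. The other shLAMP5 numbers have no shNT counterpart, so the replicate block compared only shLAMP5 libraries 1 and 2 with shNT libraries 1 and 2. Its estimates therefore leaned on shLAMP5 library 2, which stood furthest apart within shLAMP5, and are not a check on all libraries. With the replicate block the log2 fold changes changed sign for MCL1 (-0.051), BAX (-0.075), PMAIP1 (0.079) and BCL2L13 (-0.010). Library weights did so for BAK1 (0.057), BCL2L2 (0.049), BIK (0.35), BECN1 (0.30), TNFRSF10A (0.065) and DDIT3 (-0.30), and shNT 1 and shLAMP5 2 left out together for BAX (-0.089), BAK1 (0.047) and BECN1 (0.37). Scaling did so for BIK (0.016 median, 0.0073 quantile). Ranges with 1 library left out that span 0 were -0.19 to 0.28 for BAX, -0.32 to 0.17 for PMAIP1, -0.17 to 0.089 for BAK1, -0.32 to 0.026 for BCL2L2, -0.65 to 0.64 for BIK, -0.36 to 0.078 for TNFRSF10A, -0.37 to 1.68 for DDIT3, -0.017 to 0.26 for FBXW7 and -0.58 to 0.33 for BECN1. Depth is unknown, and 2 shNT libraries limit every comparison.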
